A study of Mus musculus with 6 samples.

Results

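The small RNA of Alkbh1-/- pachytene spermatocytes was compared with that of wild type (WT) cells over 1946 genomic clusters, of 4944 in the series. These are the clusters whose reads summed to 40 or more over 1 Alkbh1-/- and 2 WT libraries. Of them, 254 have a number for a name and 1692 a name beginning piC, and no label says what separates these classes. No mm9 annotation was used, so it was not tested how far reads of other small RNA, such as rRNA fragments or miRNAs, make up a cluster's reads. Just inside the limit, piC_1047 had 11 reads in Alkbh1-/-, against 12 and 17 in WT. Just outside it, cluster 1205 had 11.5 reads in Alkbh1-/-, against 13.1 and 15.4 in WT. All 1946 had reads in each of the 3 libraries, and they held 99.9% of each library's cluster reads.

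The Alkbh1-/- mice carry a targeted deletion of exon 6, and heterozygotes of the line were crossed back to C57/BL6. Both genotypes are labelled as pachytene spermatocytes from testes, and no label gives the age, the number of animals or their pooling. A library from TzfpGTi/GTi cells (a Tzfp gene trap) enters the test's fit. Small RNA of under 200 nt (50 ng, 15 PCR cycles) was read as 36 bp single ends. The cluster tables hold no gene of a cell type and no reads on Alkbh1, so neither the genotype nor the cell type can be checked in them. Cluster reads summed to 7306115 in Alkbh1-/-, 10193940 in WT replicate 1 and 15319520 in WT replicate 2, and a member had a median of 35, 46 and 58.5 reads in these libraries. Nothing says that the WT libraries came from separate animals, so their spread may be technical.

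piRNAs are small RNAs that guide PIWI proteins in germ cells. In the mouse testis, pachytene spermatocytes make them in large numbers from long precursor transcripts of discrete genomic clusters, and the transcription factor A-MYB (Mybl1) drives many of these. Transposon silencing is the best known role of piRNAs in the germ line, while many pachytene piRNAs come from sequence outside repeats. ALKBH1 belongs to the AlkB family of dioxygenases, enzymes that remove alkyl groups from nucleic acids. The study's title gives Alkbh1 and Tzfp a repressing role at 1 cluster, and the comparison asks which clusters differ when Alkbh1 is deleted.

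Levels are given as RPM, reads of a cluster divided by all cluster reads of the library and scaled to 1e6, and a fold as the ratio of 2 such levels, taken against each WT library separately. The WT pair sets the scale of error. WT replicate 1 was at least 2-fold above WT replicate 2 in 224 members (11.5%) and at least 2-fold below it in 27 (1.39%). The SD of the log2 ratio was 0.78 for Alkbh1-/- over WT replicate 1 and 0.90 for Alkbh1-/- over WT replicate 2. Between the WT libraries it was 0.66. The Alkbh1-/- library had the fewest reads, and counting error is larger at lower depth. The part of depth in these SDs was not tested. The median log2 fold of Alkbh1-/- was 0.04 over WT replicate 1 and 0.26 over WT replicate 2. Trimmed-mean scaling (TMM) shifted these folds by -0.02 and -0.21 on the log2 scale. The shift for WT replicate 2 is somewhat smaller in size than the median of 0.26.

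Alkbh1-/- lay above both WT libraries in 890 members (45.7%), below both in 627 (32.2%) and between them in 429. At 2-fold, 137 members (7.04%) were higher in Alkbh1-/- than in both WT libraries and 71 (3.65%) were lower than in both. With TMM scaling, 100 were higher and 83 lower, so the difference between the counts is smaller on that scale. With own totals, the WT libraries lay within 1.5-fold of each other in 97 of the 137 and 60 of the 71, beside 72.8% of all members. At 4-fold, 16 were higher and 5 lower, and at 8-fold 3 were higher and 2 lower. With 1 Alkbh1-/- library these counts have no test.

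**Figure D1:**
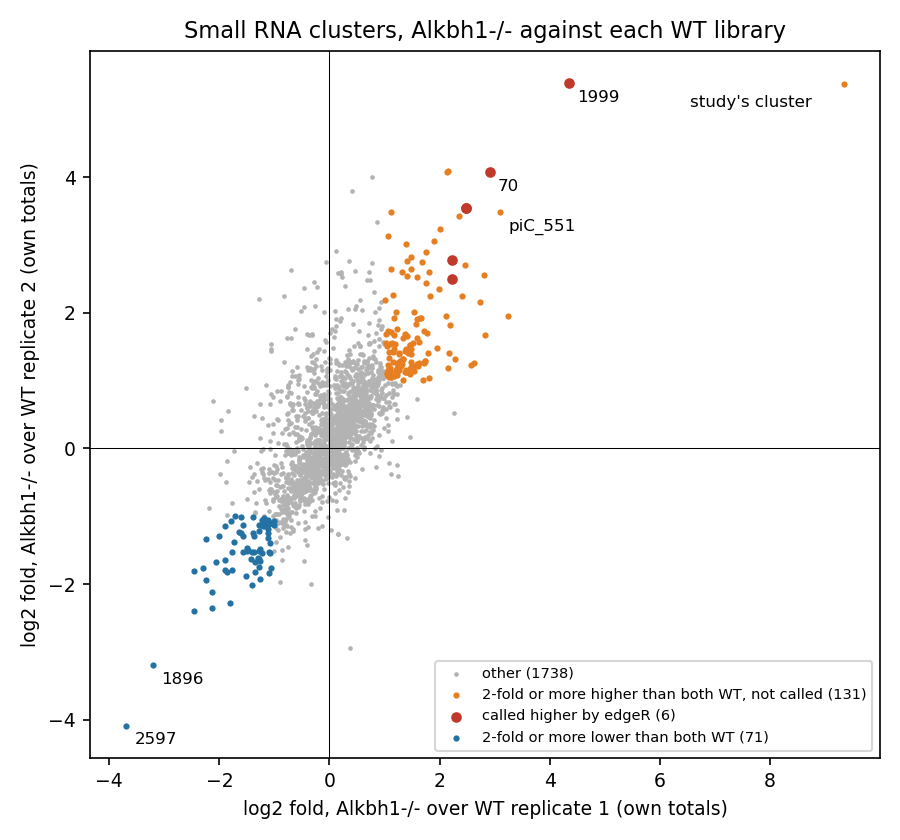
Each point is 1 of 1946 clusters, with the log2 fold of Alkbh1-/- over WT replicate 1 on the x axis and over WT replicate 2 on the y axis, each library scaled to its own total; both axes share the Alkbh1-/- library. The 6 called clusters and the study's cluster lie at the upper right, while 2597 and 1896 lie at the lower left.

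The edgeR quasi-likelihood test, fitted over all 2209 clusters with 40 or more reads in the 4 small RNA libraries of the series, called 6 members higher in Alkbh1-/- (0.272% of clusters tested) and 0 lower (0%). All 6 were at least 4-fold above both WT libraries. Only the WT pair informs its spread, with 1 residual degree of freedom, and it assumes that the Alkbh1-/- library varies like WT. No cluster was called with no scaling beyond library totals, with the Tzfp library left out of the fit or with overlapping clusters counted once, where piC_1397 was not tested. The log2 folds were nearly the same there, from 4.73 to 4.81 for cluster 1999 and from 3.31 to 3.38 for cluster 70. With a floor of 200 reads, 1 of the 6 (cluster 1999) was kept. Of the 1946 members, 163 were higher and 110 lower at an unadjusted edgeR p under 0.05. If no cluster differed, a share of 0.05 of them would be expected under that limit. DESeq2's Wald test called 19 of the 1946 higher and 5 lower.

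Cluster 1999 (mm9 chromosome 14, 95950701 to 95976300) rose most among the called clusters. It had 330 reads or 45.2 RPM in Alkbh1-/-, against 22.7 reads (2.22 RPM) in WT replicate 1 and 16.5 reads (1.08 RPM) in WT replicate 2. These WT reads alone fall short of the summed-read limit for members, so it is a member only through its Alkbh1-/- reads. It was 20.3-fold above WT replicate 1 (95% exact interval for counting error 13.1 to 32.0) and 42.0-fold above WT replicate 2 (26.2 to 76.6). The log2 fold in edgeR was 4.71 ± 0.41 (SE, 1 Alkbh1-/- and 2 WT libraries, adjusted p = 0.00802). The Alkbh1-/- level stood far above a WT pair that differed 2.06-fold.

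Cluster 70 (chromosome 1, 56823401 to 56843600) rose as well, and it is the called numbered cluster with the most reads. It had 240 RPM in Alkbh1-/-, against 32.0 and 14.2 RPM in WT replicates 1 and 2. The folds were 7.51 (6.67 to 8.48) and 16.9 (14.7 to 19.5), and the log2 fold in edgeR was 3.30 ± 0.44 (adjusted p = 0.0466). This p is shared with the piC calls below, and it was 0.102 with overlapping clusters counted once. The interval covers counting error only, and it may be too narrow even for that, since PCR copies are not independent molecules.

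The other calls were in piC clusters, each with an edgeR adjusted p of 0.0466. A pair of these, piC_1397 (chromosome 17, 39979942 to 39985771) and piC_2849, overlap and hold the same 18280 reads of Alkbh1-/-, so they are 1 signal. The 0.0466 is 1 value shared through the Benjamini-Hochberg adjustment, in which this signal holds 2 ranks. That value is thus not separate evidence for each cluster. With overlapping clusters counted once, piC_1464, piC_2196 and piC_2849 each had an adjusted p of 0.102. Whether the signal of the pair is piRNA was not tested. It stood at 2502 RPM in Alkbh1-/-, against 450 RPM in WT replicate 1 and 213 RPM in WT replicate 2. That is 5.56-fold (5.38 to 5.75) and 11.7-fold (11.3 to 12.2) higher, with the WT pair itself 2.11-fold apart. Its share of reads exceeded the nearer WT library by 0.205 percentage points, among the 8 largest excesses. The log2 fold in edgeR was 2.83 ± 0.40 (SE).

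piC_2196 (chromosome 8, 107821262 to 107836010) had 219.5 reads in Alkbh1-/-, against 65.2 and 81.8 reads in WT. piC_1464 (chromosome 19, 4396068 to 4451551) had 25.9 RPM in Alkbh1-/-, against 5.56 and 3.77 RPM in WT. In both, Alkbh1-/- lay further from the WT libraries than these did from each other. The folds over WT replicates 1 and 2 were 4.70 and 5.63 for piC_2196, and 4.67 and 6.88 for piC_1464. Their log2 folds in edgeR were 2.25 ± 0.31 and 2.38 ± 0.33 (SE).

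The cluster the study reports on, on chromosome 7 (132472368 to 132476593, 4226 bp), had the highest fold of all 1946 members against WT replicate 1. Against WT replicate 2 it came second to cluster 1999. It had 1858 reads or 254 RPM in Alkbh1-/-, against 4 reads (0.392 RPM) in WT replicate 1 and 94 reads (6.14 RPM) in WT replicate 2. The folds were 648 (interval 253 to 2381) and 41.4 (33.7 to 51.5), and the WT libraries differed 15.6-fold. Alkbh1-/- was thus well outside the WT pair, but edgeR's adjusted p was 0.0614 (log2 fold 6.04 ± 1.00, SE). It passed with DESeq2 size factors (0.0400) and without the floor on reads (1.94e-20), and it did not pass in the other 5 alternatives that gave a test. The study chose this cluster on these samples, so its place among the members is no independent evidence.

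The 3 members within 100 kb of it had no such fold. The one that ends 13567 bp before it had 199 reads in Alkbh1-/-, against 258 and 383 in WT, 1.08-fold and 1.09-fold higher. The one that begins 16407 bp after it had 122 RPM in Alkbh1-/-, against 158 and 187 RPM in WT. Cluster 1081, which ends 24167 bp before it, had 15 reads in Alkbh1-/- (2.05 RPM), against 36 and 69 reads (3.53 and 4.50 RPM) in WT. None of the 3 passed edgeR, with adjusted p of 0.998 (before), 0.521 (after) and 0.411 (1081).

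In the Tzfp gene trap library, set against the same WT libraries, the study's cluster stood at 3874 RPM, its neighbour before at 2.30 RPM and its neighbour after at 244 RPM. Cluster 1999 had 4.23 RPM there and cluster 70 had 52.0 RPM. piC_1397 had 394 RPM in that library. These values share their WT controls with the Alkbh1-/- folds and are given side by side only.

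Among the 770 members with 200 or more reads, the other 5 of the 12 with the highest fold against the nearer WT library are piC clusters that did not pass edgeR. Their RNA class was not tested either. piC_1210 (chromosome 14, 115441554 to 115461711) had 857 RPM in Alkbh1-/-, against 169 and 79.2 RPM in WT (adjusted p = 0.0519). piC_441 (chromosome 5, 138602085 to 138621826) had 876 RPM in Alkbh1-/-, against 166 and 184 RPM in WT, which lay within 1.5-fold of each other (adjusted p = 0.0519). Both stood about 5-fold above the nearer WT library, with folds of 5.08 and 10.8 for piC_1210 and of 5.28 and 4.75 for piC_441.

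piC_1028 (chromosome 11) had 23.3 RPM in Alkbh1-/-, against 3.49 and 5.23 RPM in WT (adjusted p = 0.0626). piC_2570 and the overlapping piC_1101 on chromosome 13 share their 451 reads of Alkbh1-/-, at 61.8 RPM. piC_2570 had 13.8 RPM in WT replicate 1 and 3.63 RPM in WT replicate 2, a WT difference of 3.81-fold (adjusted p = 0.112). Outside the rule for named clusters and chosen after its values were seen, piC_551 on chromosome 7 had 42.9 reads in Alkbh1-/-, against 7 and 8 in WT (8.55-fold and 11.2-fold, adjusted p = 0.0519). It too is a member only through its Alkbh1-/- reads.

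**Figure D2:**
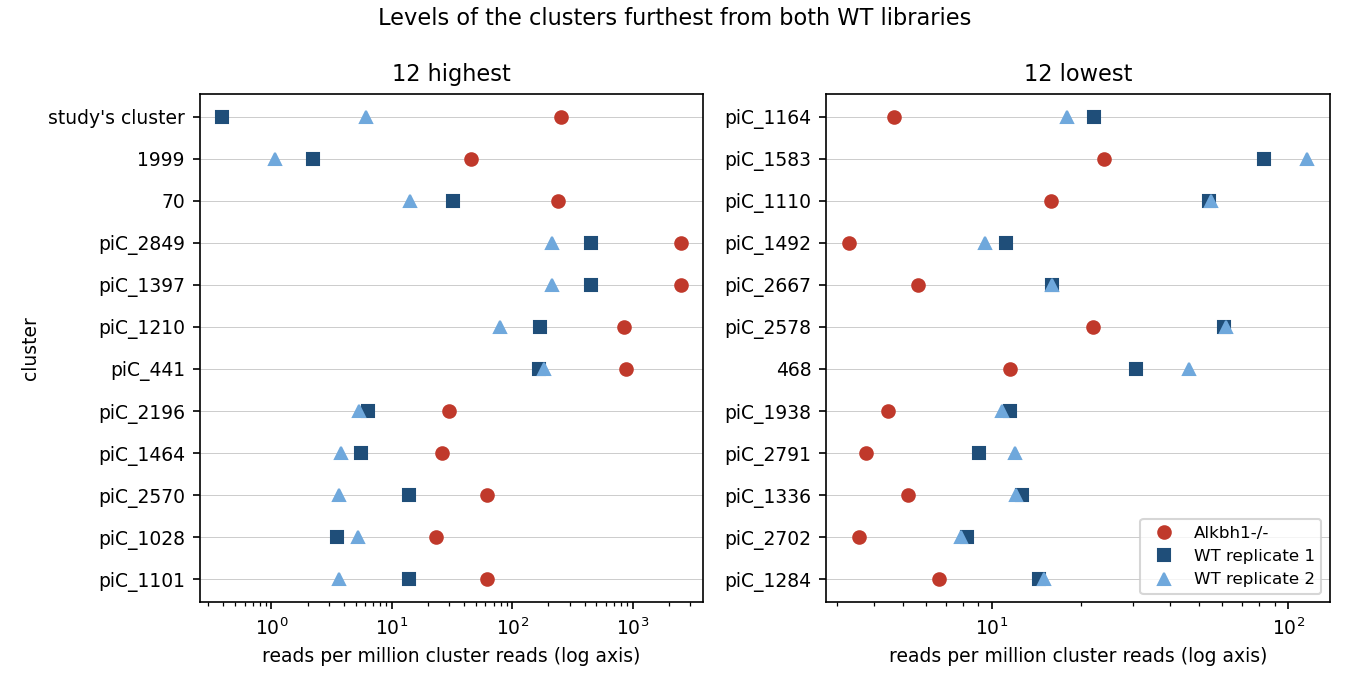
RPM (log axis) in each library of the 12 clusters with the highest (left) and the 12 with the lowest (right) fold against the nearer WT library, among members with 200 or more reads. Because the rows were chosen by this fold, the Alkbh1-/- point stands apart from both WT points in every row. The rows run from the study's cluster (254 RPM in Alkbh1-/-, against 0.392 and 6.14 in WT) to piC_1284 (6.61 RPM in Alkbh1-/-, against 14.4 and 15.04 in WT).

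Among members with 200 or more reads, the 12 lowest had smaller folds than the 12 highest, and no lower cluster passed edgeR. The floor of 200 counts Alkbh1-/- reads too, so a cluster high there can reach it through them. Cluster 1999 did so, with 330 reads in Alkbh1-/- and 22.7 and 16.5 in WT. A cluster low in Alkbh1-/- has no such help, so the highest and lowest folds are not compared on even terms. piC_1164 (chromosome 13, 113523137 to 113528798) had 34 reads or 4.65 RPM in Alkbh1-/-, against 22.1 RPM in WT replicate 1 and 17.9 RPM in WT replicate 2. It was 4.75-fold and 3.84-fold lower (log2 fold -2.21 ± 0.38, adjusted p = 0.0643), and it passed with DESeq2 size factors, by DESeq2's Wald test and without the floor on reads. piC_1583 (chromosome 1, 158257034 to 158285343) had 23.8 RPM in Alkbh1-/-, against 83.2 and 116 RPM in WT (adjusted p = 0.109).

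On chromosome 13, piC_1110 (23609068 to 23631934) lies within piC_2578. It had 15.8 RPM in Alkbh1-/-, against 54.0 and 54.8 RPM in WT, a WT pair that agreed closely. It was 3.41-fold and 3.46-fold lower, with an adjusted p of 0.103. piC_2667 on chromosome 14 had 5.61 RPM in Alkbh1-/-, against 15.9 RPM in both WT libraries (adjusted p = 0.152). Cluster 468 on chromosome 4 had 11.5 RPM in Alkbh1-/-, against 30.6 and 46.4 RPM in WT (adjusted p = 0.171).

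The 6 other clusters of the lowest 12, piC_1492, piC_1938, piC_2791, piC_1336, piC_2702 and piC_1284, held from 24 to 48.3 reads in Alkbh1-/-. Their edgeR log2 folds ran from -1.76 (piC_1492) to -1.28 (piC_1284), with adjusted p from 0.131 to 0.243.

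The 5 members that were at least 4-fold lower than both WT libraries all held under 100 reads in all and were named after their values were seen. Cluster 2597 on chromosome X had 0.833 reads in Alkbh1-/-, against 15 and 29.8 in WT (adjusted p = 0.185). Cluster 1896 on chromosome 14 had 1.33 reads in Alkbh1-/-, against 17.1 and 25.6 in WT (adjusted p = 0.236). The remaining 3, cluster 1963, piC_1863 and piC_2098, held from 2.35 to 4 reads in Alkbh1-/-. At these depths a few reads decide the fold.

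Clusters 2-fold from both WT libraries held a small part of all reads. The 137 higher ones held 1.53% of reads in Alkbh1-/-, against 0.392% in WT replicate 1 and 0.359% in WT replicate 2. Their median was 184 reads in all. Of the 137, 19 overlap a cluster with more reads, so some reads are counted more than once. In Alkbh1-/-, piC_1397 and piC_2849 each add 0.250% from the same reads. The 71 lower ones held 0.0237% of reads in Alkbh1-/-, against 0.0641% and 0.0705% in WT. Their median was 98.1 reads in all. Each group was chosen by its fold, so the direction of its difference in share follows from the choice. The other 1738 had a median of 142 reads. Median cluster length was 32475 bp for the higher, 22867 bp for the lower and 27622.5 bp for the other clusters. By class, 8.66% of numbered and 6.80% of piC members were higher, and 4.33% of numbered and 3.55% of piC members were lower.

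Of the higher clusters, 5 had 10000 or more reads in all, and all 5 are piC clusters (named after their values were seen) whose RNA class was not tested. They are piC_1397 and piC_2849, piC_441, piC_2628 and piC_834. piC_2628 (chromosome 13, 113805470 to 113830839) had 1084 RPM in Alkbh1-/-, against 114 RPM in WT replicate 1 and 279 RPM in WT replicate 2. piC_834 (chromosome 9, 108462761 to 108490130) had 1941 RPM in Alkbh1-/-, against 706 and 904 RPM in WT. Neither passed edgeR (adjusted p of 0.155 and 0.252).

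**Figure D3:**
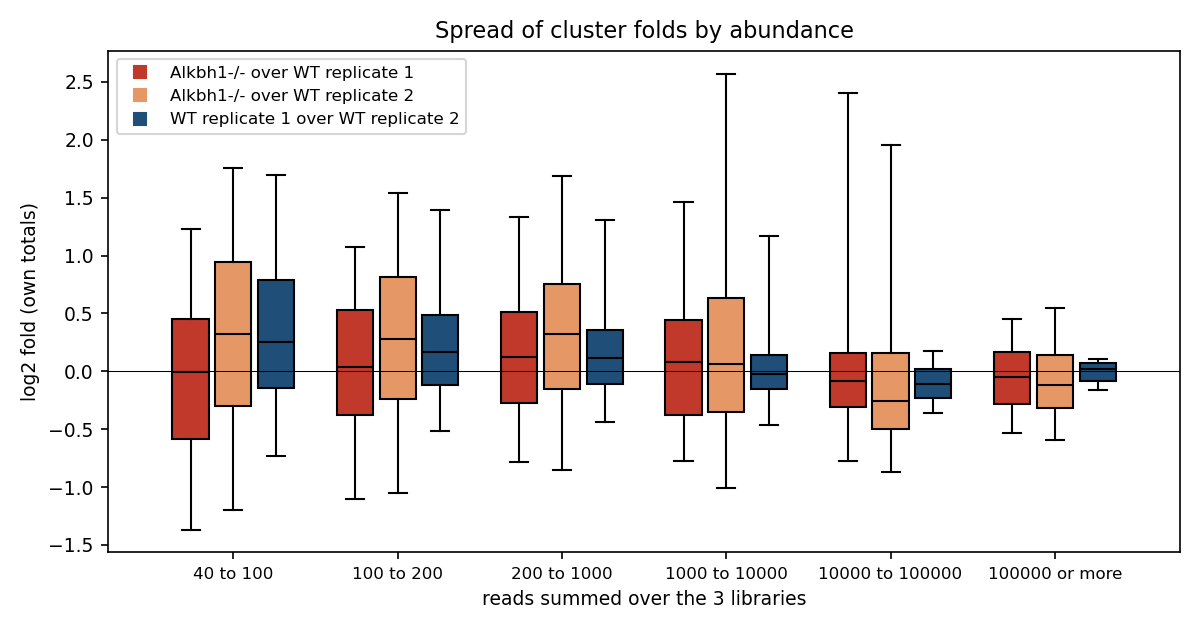
Log2 folds of the members by their reads summed over the 3 libraries; boxes are quartiles with the median, whiskers the 5th and 95th percentiles. Above 100000 reads the SD is 0.33 and 0.40 for Alkbh1-/- over WT replicates 1 and 2, against 0.15 for the WT pair.

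The spread of the folds was lowest among the most abundant clusters. For members with 40 to 100 reads, the SD of the log2 ratio was 0.84 for Alkbh1-/- over WT replicate 1 and 0.93 over WT replicate 2, against 0.77 in the WT pair. From 100 to 1000 reads it was 0.69 to 0.70 and 0.83 to 0.84, against 0.54 to 0.58. It was widest from 1000 to 10000 reads, at 1.01 and 1.13, against 0.74 in the WT pair. These members include the study's cluster, whose log2 folds of 9.34 and 5.37 and WT log2 ratio of -3.97 raise these SDs. From 10000 to 100000 reads the SD was 0.81 and 0.90, against 0.34. The overlapping piC_1397 and piC_2849, with the same Alkbh1-/- reads, are both counted there. For the 45 members with 100000 or more reads it was 0.33 and 0.40, against 0.15 in the WT pair. These 45 held 89.6% of reads in Alkbh1-/-, against 90.3% and 90.1% in WT. None of them was 2-fold from both WT libraries, and 38 lay within 1.5-fold of each. Alkbh1-/- lay below both WT libraries in 26 of the 45 and above both in 16.

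Among these abundant clusters, 2249 on chromosome 17 (27386801 to 27518200) had the largest excess of share in Alkbh1-/-. It held 12.7% of reads in Alkbh1-/-, against 8.44% and 8.08% in WT, 4.26 percentage points above the nearer WT library. Over all members above both WT libraries, the excess over the nearer one summed to 8.83 points, of which 2249 made 48.2%. edgeR did not call it (log2 fold 0.50 ± 0.25, adjusted p = 0.431), and its WT libraries differed 1.04-fold.

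The 10 clusters with most WT reads together held 49.3% of reads in Alkbh1-/-, against 49.6% and 48.5% in WT, between the WT libraries. Without 2249 the other 9 held 36.7% in Alkbh1-/-, against 41.1% and 40.5% in WT. Shares sum to a fixed total, so a larger share of 2249 leaves a smaller share for all other clusters together. How much of each deficit below follows from this was not tested. Cluster 1709 (chromosome 12) had 3.14% in Alkbh1-/-, against 3.95% and 3.99% in WT, the largest deficit of share. Cluster 1297 (chromosome 9) had 3.21% in Alkbh1-/-, against 4.15% and 4.01% in WT. Cluster 525 (chromosome 4) had 1.79% in Alkbh1-/-, against 2.55% and 2.70% in WT, the lowest ratio to WT (0.703 and 0.663) among the 8 with the largest deficit. Cluster 2405 (chromosome 18) had 3.71% in Alkbh1-/-, against 4.43% and 4.99% in WT. Clusters 2098, 882, 200 and 1024 had deficits of 0.43 to 0.48 points and, for 1024, 0.41 points.

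Cluster 716 on chromosome 5 was the one of these 9 above both WT libraries, with 3.92% in Alkbh1-/-, against 3.46% and 3.41% in WT. Cluster 1031 (4.55% in Alkbh1-/-, against 4.59% and 4.77% in WT) lay just below its WT pair, and 1301 (6.31% in Alkbh1-/-, against 6.85% and 6.10%) lay between its WT libraries. No adjusted p among these 10 clusters was under 0.431.

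Other clusters with a larger share were 1441 on chromosome 10 (2.23% in Alkbh1-/-, against 1.70% and 1.52% in WT) and 1191 on chromosome 8 (1.45% in Alkbh1-/-, against 1.02% and 0.992%). On chromosome 4, 489 had 1.32% in Alkbh1-/-, against 0.944% and 0.879% in WT, and it contains 488. Cluster 2116 on chromosome 15 had 1.34% in Alkbh1-/-, against 1.08% and 1.01% in WT. Each of these lay above both WT libraries, and none passed edgeR.

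**Figure D4:**
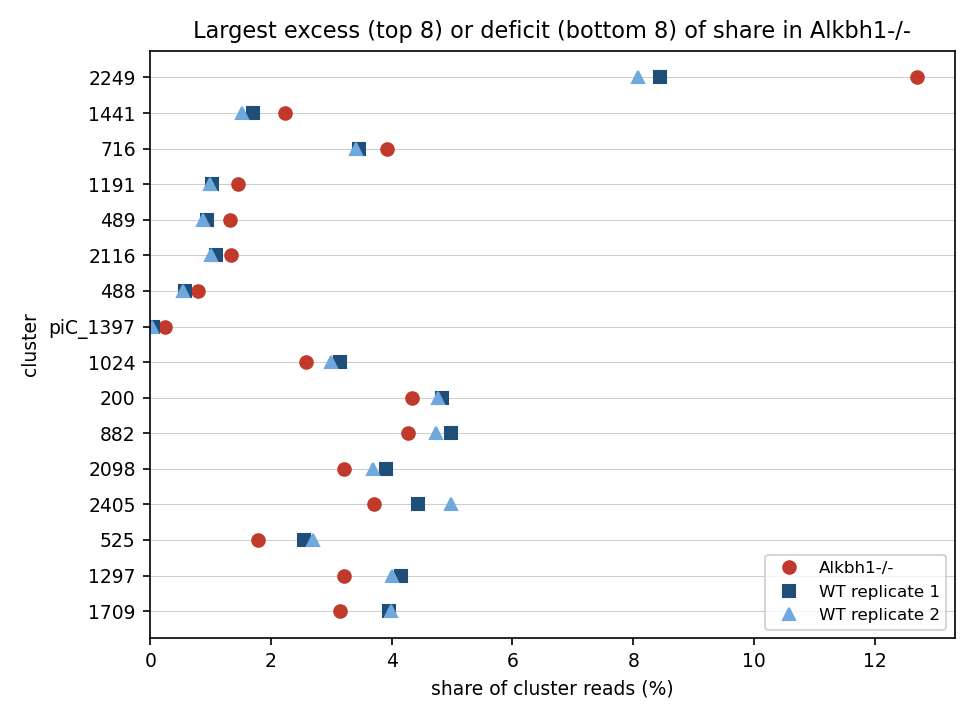
Share of cluster reads (%) in each library for the 8 clusters with the largest excess and the 8 with the largest deficit in Alkbh1-/- against the nearer WT library; the axis starts at 0. Cluster 2249 stands at 12.7% in Alkbh1-/-, against 8.44% and 8.08% in WT.

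A further group of abundant clusters lies close together on chromosome 2. piC_154, piC_1656, piC_155 and piC_1657 lie between 150965623 and 151258128. Their folds over WT replicate 1 ran from 0.666 (piC_154) to 0.711 (piC_155), and over WT replicate 2 from 0.630 to 0.675. All 4 lay below both WT libraries, with adjusted p from 0.384 (piC_154) to 0.429 (piC_155). Reads that map to several places may be shared among clusters, since 59.7% of the deposited values under 100 are not whole. Cluster 1215 on chromosome 8 had the lowest fold of the abundant clusters, at 0.518% in Alkbh1-/-, against 0.875% and 1.41% in WT, and its WT libraries differed 1.61-fold.

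By chromosome, chromosome 17 stood apart on the higher side. It held 15.96% of reads in Alkbh1-/- (95% Wilson interval 15.93 to 15.99), against 11.2% in WT replicate 1 and 10.8% in WT replicate 2. Without 2249 its members held 3.27% of reads in Alkbh1-/-, against 2.80% and 2.67% in WT. Without piC_1397 and piC_2849 as well, they held 2.77% in Alkbh1-/-, against 2.71% and 2.63% in WT. Of its 115 members, 18 (15.7%) were at least 2-fold higher than both WT libraries, beside 7.04% of all members, and 4 were lower. The median log2 fold of its members was 0.32 over WT replicate 1 and 0.61 over WT replicate 2, beside 0.04 and 0.26 over all members.

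The higher clusters of chromosome 17 lay mostly in its first 40 Mb, a limit set after the values were seen. The labels give no strain for WT, so strain background and genotype cannot be told apart in this region. With overlapping clusters counted once, 44 of 60 members there lay above both WT libraries, 11 below both, and 14 were at least 2-fold higher. In the rest of the chromosome 18 of 38 lay above both and 1 was at least 2-fold higher. On the other chromosomes 721 of 1656 lay above both and 103 (6.22%) were at least 2-fold higher. The median log2 fold in the first 40 Mb was 0.43 over WT replicate 1 and 0.75 over WT replicate 2, beside 0.17 between the WT libraries.

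Among 87 windows of 10 Mb with 8 or more members, the window from 20 to 30 Mb of chromosome 17 had the highest median against WT replicate 1 (0.52) and the second highest against WT replicate 2 (0.90). It holds 32 members with 2249 among them, the most members of any such window. Of these, 22 (68.8%) lay above both WT libraries and 9 were 2-fold higher, the most of any such window. Over all members with overlaps counted once, 44.6% lay above both and 6.73% were 2-fold higher. Other windows had a larger share above both, such as 9 of 10 members at 20 to 30 Mb of chromosome 9. At 0 to 10 Mb of chromosome 19 it was 18 of 21. On either side of 2249, piC_2823 (27166056 to 27259610) had 190 reads in Alkbh1-/-, against 111 and 164 in WT, 2.39-fold and 2.43-fold higher. piC_2825 (27650356 to 27714617) had 249 RPM in Alkbh1-/-, against 99.8 and 105 RPM in WT. Neither passed edgeR (adjusted p of 0.231 and 0.241), and neither did the other members of the window. In the same window, 6 members lay below both WT libraries, and piC_1356 and cluster 2243 were more than 2-fold lower than both.

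**Figure D5:**
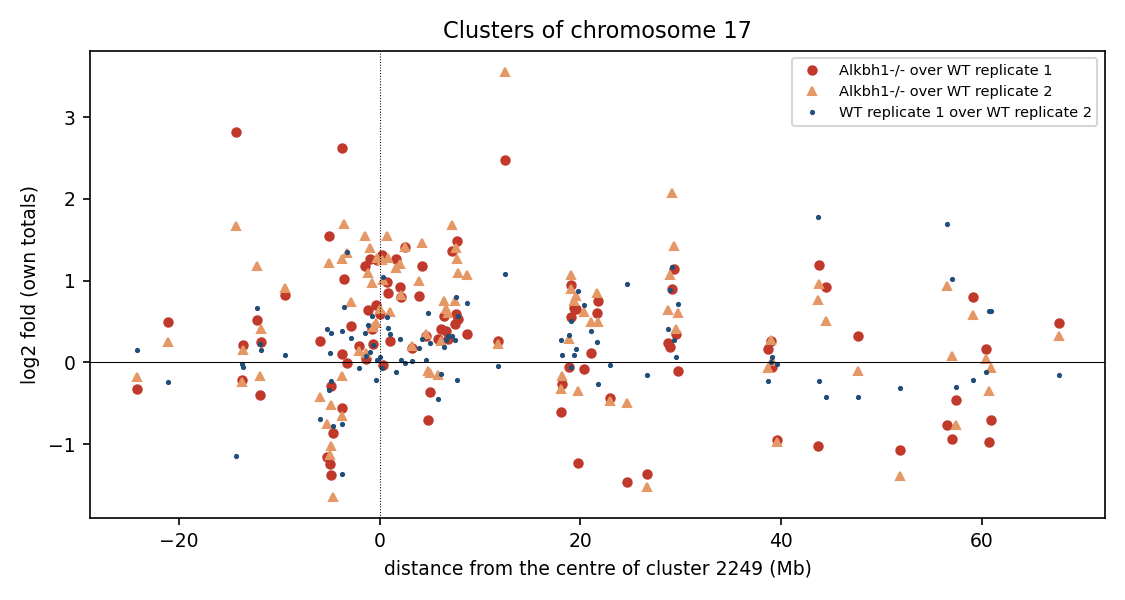
Log2 fold of each member of chromosome 17 (overlapping clusters counted once) by its distance in Mb from the centre of cluster 2249 (dotted line at 0), for Alkbh1-/- over each WT library and for the WT pair. Alkbh1-/- lay above both WT libraries in 44 of the 60 members of the first 40 Mb, and in 18 of the 38 beyond.

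On the other chromosomes, the share in Alkbh1-/- lay within 1 percentage point of the nearer WT library. Chromosomes 10 and 5 held a larger share of reads in Alkbh1-/- than in both WT libraries (6.04% in Alkbh1-/-, against 5.42% and 5.32% in WT, for chromosome 10; 11.9% in Alkbh1-/-, against 11.3% and 11.2%, for chromosome 5). Chromosome 7 had 10.1% in Alkbh1-/-, against 11.1% and 11.3% in WT, and chromosome 12, where 1709 lies, had 3.18% in Alkbh1-/-, against 3.99% and 4.02%. Chromosome 18 had 3.74% in Alkbh1-/-, against 4.47% and 5.02% in WT.

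The 12 members of chromosome X held 0.0669% of reads in Alkbh1-/-, against 0.0432% in WT replicate 1 and 0.0186% in WT replicate 2. Cluster 2548 made most of this, with 563 RPM in Alkbh1-/-, against 339 and 101 RPM in WT (adjusted p = 0.390). Its WT libraries differed more than Alkbh1-/- did from WT replicate 1. Only 4 of the 12 lay above both WT libraries, none was 2-fold higher than both, and 1, cluster 2597, was 2-fold lower.

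piC clusters as a class held 6.94% of reads in Alkbh1-/- (interval 6.92 to 6.96), against 6.53% (6.52 to 6.55) in WT replicate 1 and 6.68% (6.67 to 6.69) in WT replicate 2. The difference from the nearer WT library, 0.258 points, is larger than that between the WT libraries. It rests on piC_1397 and piC_2849, whose shared reads are counted in both. Without this pair the class held 6.438% in Alkbh1-/-, against 6.442% and 6.637% in WT, so Alkbh1-/- was no longer above WT. The median log2 fold of the 1692 piC members was 0.05 over WT replicate 1 and 0.29 over WT replicate 2. For the 254 numbered members it was -0.01 and 0.03.

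The mRNA libraries of the same genotypes (1 Alkbh1-/-, 10229260 counts, and 1 WT, 8222671 counts) give levels of genes of the piRNA pathway, with no replicate and so no test. Of 27 measured pathway genes, 3 were at least 1.5-fold higher and 1 lower in Alkbh1-/-, with a median log2 ratio of 0.12, beside 10.2% higher and 8.93% lower of 15865 genes. Piwil1, the PIWI protein MIWI of pachytene cells, had 1217 CPM, gene counts scaled to a library total of 1e6, in Alkbh1-/-, against 1151 CPM in WT. Mybl1, which encodes A-MYB, had 130 CPM in Alkbh1-/-, against 138 CPM in WT. Mov10l1, an RNA helicase of piRNA processing, had 186 CPM in Alkbh1-/-, against 120 CPM in WT (ratio 1.55, exact interval 1.44 to 1.68). Kif17, a kinesin motor, had 183 CPM in Alkbh1-/-, against 101 CPM in WT, and Pnldc1, which trims piRNA ends, had 20.1 CPM in Alkbh1-/-, against 11.9 CPM in WT. Spocd1, the lower one, had 8.61 CPM in Alkbh1-/-, against 13.6 CPM in WT, and it lay within 1.5-fold when library totals replaced TMM.

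Markers of other testis cells also differed between the mRNA libraries. Of all 15865 genes, 10.2% were at least 1.5-fold higher and 8.93% lower in Alkbh1-/-. The 11 measured Sertoli cell genes included 10 at least 1.5-fold lower in Alkbh1-/-, with 0 higher and summed levels of 1287 CPM in Alkbh1-/- and 2607 CPM in WT. Of 6 Leydig cell genes, 5 were higher and 0 lower, with sums of 140 and 69.8 CPM in Alkbh1-/- and WT. Of these 5, Lhcgr rests on 17 counts in Alkbh1-/- and 5 in WT (exact interval of the ratio 0.947 to 9.27). Of 7 round spermatid genes, 5 were higher and 0 lower, with sums of 1092 and 825 CPM in Alkbh1-/- and WT. None of these cell types' markers was at 0 in either library. The 8 pachytene genes summed to 9656 CPM in Alkbh1-/- and 10481 CPM in WT, and all lay within 1.5-fold. In such bulk samples, fewer cells of a type and less RNA per cell cannot be told apart. The part of cell mixture in the cluster folds was not tested. Whole-gene counts of Alkbh1 (20.2 CPM in Alkbh1-/-, against 21.0 CPM in WT) do not test a deletion of 1 exon.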

How the data were processed

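The deposited small RNA tables give an expected count per cluster, made by the authors, with mm9 positions. The submitters' processing notes list CASAVA 1.3, bedtools, TopHat and Novoalign beside the mm9 build, with no roles. The deposited mRNA table holds whole-number counts per gene, and no source at hand states how strand was used. All 14343 expected counts under 100 were multiples of 1/60 within rounding. Reads in overlapping clusters enter totals more than once.

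Absent clusters were set to 0 and each library was scaled to its own total. The precision of a level is set by depth: 1 read is 0.137 RPM in Alkbh1-/-, 0.0981 RPM in WT replicate 1 and 0.0653 RPM in WT replicate 2. Expected counts were rounded for edgeR 4.0.16 (R 4.3.3), fitted with TMM and 1 coefficient per genotype over 4 libraries (biological coefficient of variation 0.257), with Benjamini-Hochberg adjustment at 0.05. SE came from the log2 fold and F. DESeq2 1.42.0, Python 3.11.15, scipy 1.17.1, numpy 2.4.6, pandas 2.3.3 and matplotlib 3.10.9 were also used. mRNA log2 ratios used TMM and a pseudocount of 1 CPM. Intervals are exact (ratios) or Wilson (shares), at 95%, and cover counting error only.

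Named were all called clusters, the study's cluster and members within 100 kb of it, the 10 with most WT reads, the 12 highest and 12 lowest of those with 200 or more reads, and the 8 with the largest gain and loss of share. A further part of the rule, members at 0 in Alkbh1-/- or in both WT libraries, held 0 clusters. Members and lists were chosen with earlier results of these data known. Spermatogonial genes had 2 of 6 at least 1.5-fold higher and 0 lower in Alkbh1-/- mRNA.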

Additional observations from a re-analysis of the deposited data

How the results depend on the processing

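Clusters called higher in Alkbh1-/- by edgeR numbered 6. They were 13 with DESeq2 size factors, 19 by DESeq2's Wald test, 33 without a floor, 2 with a floor of 200 reads, and 0 with no scaling beyond totals, with only the WT and Alkbh1-/- libraries, or with overlapping clusters counted once. Of the 6, all were among the 13, the 19 and the 33, and 1 (cluster 1999) was among the 2. Clusters called lower numbered 0, and 1, 5 and 7 with DESeq2 size factors, the Wald test and no floor. The calls were most numerous where the floor was dropped; the cause was not tested.

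For the study's cluster on chromosome 7 the adjusted p was 0.0400 with DESeq2 size factors (log2 fold 6.01) and 1.94e-20 without a floor (5.89). It ranged up to 0.315 in the other alternatives, and the log2 fold was 9.32 without WT replicate 2 and 5.16 without WT replicate 1. Leaving out a WT library leaves no residual degrees of freedom, so those are values with no test.

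Clusters at least 2-fold higher than both WT libraries numbered 137 and those lower 71. With a floor of 200 reads they were 65 and 17 of 770. At 1.5-fold they were 317 and 185, and at 4-fold 16 and 5. Against WT replicate 2 alone they were 359 and 116, and against WT replicate 1 alone 173 and 139. With DESeq2 size factors they were 93 and 88, so the excess of higher over lower clusters depends on the scaling.

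The log2 ratio of the share in piC clusters was 0.071, and 0.045 with overlapping clusters counted once. It was -0.022 without piC_1397 and piC_2849, an alternative chosen after seeing the data. A pair of named clusters near no difference changed sign. Cluster 716 (log2 fold 0.073) had -0.049 without a floor, and from -0.011 to 0.16 with 1 WT library left out. The neighbour before the study's cluster (-0.0027) had 0.11 with no scaling, 0.051 with a floor of 200 reads, 0.029 with WT and Alkbh1-/- only and 0.048 with overlaps counted once. It had from -0.084 to 0.092 with 1 WT library left out. No paired analysis was possible because the Alkbh1-/- library carries no replicate number. With 1 Alkbh1-/- library, its own spread is unknown.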
